A study of Mus musculus with 2 samples.

Results

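Gap junction genes were followed through the cells of the mouse thalamus. The genes were the connexins Gja1 (encoding Cx43), Gjb6 (Cx30), Gjb1 (Cx32), Gjc3 (Cx29), Gja4 (Cx37), Gja5 (Cx40), Gjc1 (Cx45) and Gjd2 (Cx36), together with the pannexin Panx1. They were taken by gene symbol, and all 9 were found among the 32285 genes counted. The samples were the thalami of 2 wildtype C57BL/6J mice, aged 2 months and given no treatment, with 1 single-cell 3′ library (10x Genomics v3) per animal. Of 7889 and 12107 barcodes in the libraries of mouse 1 and mouse 2, 36 occurred in both, and 6185 and 9176 cells were kept after filtering. No group of animals was set against another, so every comparison is between cell classes of the same 2 mice.

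Connexins form channels that dock between neighbouring cells as gap junctions, through which ions and small metabolites pass. In the brain, astrocytes and oligodendrocytes use different connexins, arterial endothelium and mural cells carry a vascular set, and neurons form electrical synapses mainly with Cx36. Pannexins are related in fold but usually act as single-membrane channels that release ATP, whose signals are read by purinergic receptors and ended by ectonucleotidases.

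Cell classes were defined from marker genes other than the genes described here, which were also kept out of the clustering. Each class name carries "-like", since the naming rests on these markers alone. Levels are given in CPM, that is the UMIs of a gene scaled by all UMIs summed over the cells of a class in 1 mouse, and a value pair is always mouse 1 and then mouse 2. Gene loci are on GRCm38, from GENCODE. Gja1 lies at chr10:56377330-56402513 on the plus strand, Gjb6 at chr14:57123303-57133611 on the minus strand, Gjb1 at chrX:101376378-101385629 on the plus strand and Gjc3 at chr5:137953461-137963098 on the minus strand. Gja4 lies at chr4:127311421-127314039 (minus), Gja5 at chr3:96904693-97077416 (plus), Gjc1 at chr11:102799579-102819700 (minus), Gjd2 at chr2:114009601-114013619 (minus) and Panx1 at chr9:15002128-15045478 (minus). The annotated coding sequence of Gja1, Gjb6, Gjb1, Gja4, Gja5 and Gjc1 lies in 1 uninterrupted segment each, that of Gjc3 and of Gjd2 in 2 segments, and that of Panx1 in 5. The Gja5 span overlaps other annotated genes, among them Gpr89, 9230114J08Rik and 4930573H18Rik, and the Gjd2 span overlaps A530058N18Rik. Whether counting was strand-specific is not given in these sources, so reads of Gja5 and Gjd2 cannot be told apart from those of these partners.

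The start regions of the astrocyte pair Gja1 and Gjb6 and of the oligodendrocyte pair Gjb1 and Gjc3 are shown because these 4 genes carry the main contrast between the glial classes. Each is 300 bases on the gene's strand, 250 before and 50 after a RefSeq start site, from the RefSeq table for GRCm38.p6. Capitals mark every match, on either strand, of 5 motifs. The SOX-type cores searched were ACAAAG and a second form of it, ACAATG. The AP-1 type motif was TGANTCA, the GC box was searched as GGGCGG and the TATA box as TATAAA. No overlap between different motifs occurred in these 4 windows. The windows lie at chr10:56377050-56377349 (plus), chr14:57133562-57133861 (minus), chrX:101383482-101383781 (plus) and chr5:137963049-137963348 (minus), in the order printed.
Gja1: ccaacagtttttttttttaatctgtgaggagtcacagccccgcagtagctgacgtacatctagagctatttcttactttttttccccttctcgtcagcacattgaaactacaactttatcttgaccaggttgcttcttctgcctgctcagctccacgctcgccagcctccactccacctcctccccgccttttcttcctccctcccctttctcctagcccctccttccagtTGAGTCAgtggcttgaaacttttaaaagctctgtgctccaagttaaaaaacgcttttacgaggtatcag
Gjb6: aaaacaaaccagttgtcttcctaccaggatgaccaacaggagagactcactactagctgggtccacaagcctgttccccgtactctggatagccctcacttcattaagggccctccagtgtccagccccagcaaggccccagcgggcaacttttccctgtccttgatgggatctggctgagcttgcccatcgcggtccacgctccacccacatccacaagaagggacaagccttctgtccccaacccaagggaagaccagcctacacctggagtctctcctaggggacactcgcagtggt
Gjb1: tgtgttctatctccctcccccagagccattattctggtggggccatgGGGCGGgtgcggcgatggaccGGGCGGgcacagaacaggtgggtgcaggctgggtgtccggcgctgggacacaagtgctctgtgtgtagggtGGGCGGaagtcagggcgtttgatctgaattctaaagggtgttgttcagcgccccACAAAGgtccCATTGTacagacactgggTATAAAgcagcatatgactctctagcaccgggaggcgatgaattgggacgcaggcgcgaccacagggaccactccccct
Gjc3: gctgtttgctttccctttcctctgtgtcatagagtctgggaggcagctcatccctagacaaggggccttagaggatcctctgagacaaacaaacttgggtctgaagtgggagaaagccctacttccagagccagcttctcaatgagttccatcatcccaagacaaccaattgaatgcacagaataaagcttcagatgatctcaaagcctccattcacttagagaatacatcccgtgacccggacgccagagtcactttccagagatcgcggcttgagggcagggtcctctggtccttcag

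The Gja1 window held 1 TGANTCA match, 19 bases before the start site, a motif found in 7.81% of the 32851 start windows of the table. The Gjb1 window held the first SOX-type core, the second core on the opposite strand, 3 GC boxes and 1 TATA box, and the shares of all windows with these motifs were 18.7%, 12.6%, 35.7% and 13.6%. The table lists 4 start sites for Gjb1, and 3′ tags do not tell which of them was used. The window printed is the one with the most matches, 6 in all, and the other windows of this gene held 1, 0 and 0. None of the 5 motifs occurred in the windows printed for Gjb6 and Gjc3. Of the 9 genes, 8 had a window in the table.

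The genes fell into glial, vascular and neuronal patterns. Gja1 and Gjb6 were highest in astrocyte-like cells, Gjb1 in mature oligodendrocyte-like cells, Gjc3 and Panx1 in committed oligodendrocyte precursor-like cells, Gjc1 in pericyte-like cells and Gja4 in smooth muscle-like and pericyte-like cells. Gja5 and Gjd2 stayed low everywhere, with highest class means of 5.44 CPM in arterial endothelial-like cells and 9.56 CPM in neuron-like cells of unresolved transmitter. Differences were tested on the summed counts with edgeR's quasi-likelihood test, with the mouse as a block and Benjamini-Hochberg adjustment over the 17006 genes tested, and a gene was called at an adjusted p below 0.05 together with a fold change of at least 1 on the log2 scale in either direction. All 9 genes passed the filter on low counts.

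**Figure D1:**
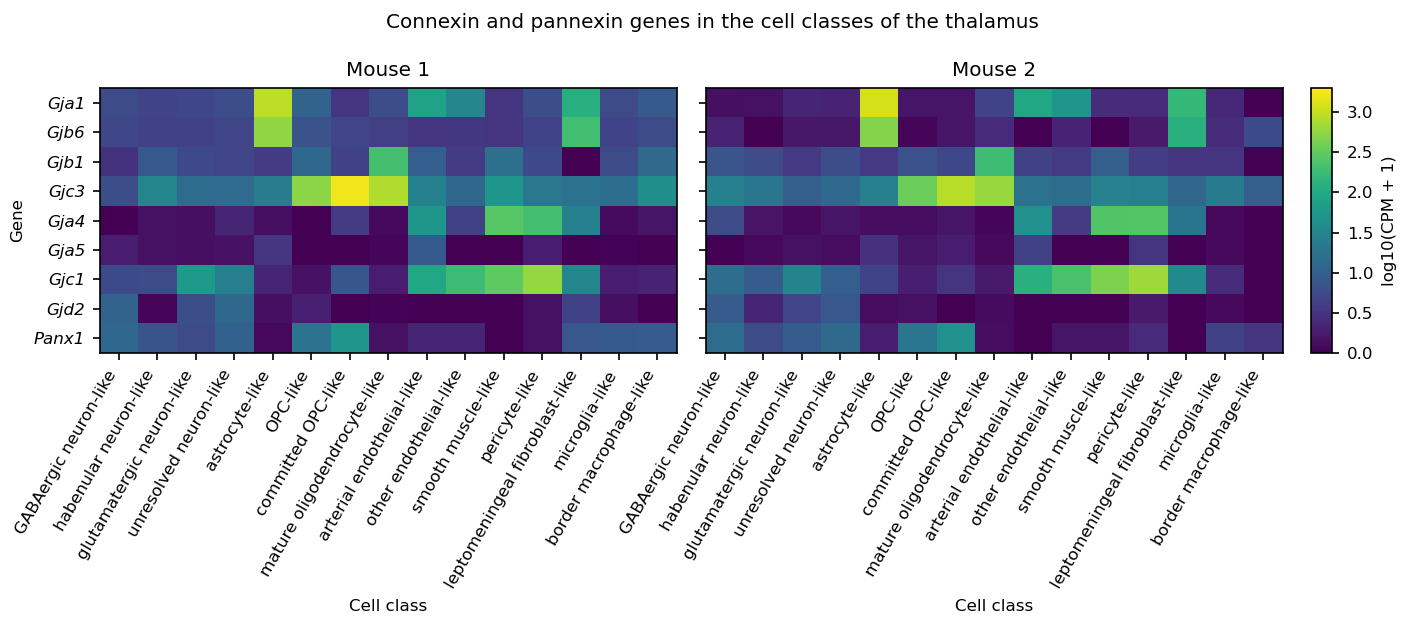
Level of each gene (rows) in each cell class (columns) of mouse 1 and mouse 2, as log10(CPM + 1) of summed UMIs; OPC stands for oligodendrocyte precursor, and colours compare classes within a gene. Among the brightest cells are Gja1 and Gjb6 in astrocyte-like cells, Gjc3 in the 3 oligodendrocyte stages and Gjb1 in mature oligodendrocyte-like cells. Gjc1 and Gja4 in smooth muscle-like and pericyte-like cells are also among them.

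Gja1 encodes the main astrocyte connexin. It was at 932 and 1222 CPM in astrocyte-like cells, against 4.99 and 3.67 CPM in mature oligodendrocyte-like cells. Gjb6, which encodes the second astrocyte connexin, was at 568 and 484 CPM in astrocyte-like cells, against 3.22 and 1.57 CPM in mature oligodendrocyte-like cells. The classes did not overlap for either gene, and the log2 fold changes were 7.85 ± 0.81 (SE; edgeR adjusted p = 4.43e-08) for Gja1 and 7.77 ± 0.67 (edgeR adjusted p = 3.56e-09) for Gjb6. Gjb1 and Gjc3, the myelin connexins, ran the other way. Gjb1 was at 2.70 and 2.52 CPM in astrocyte-like cells, against 213 and 185 CPM in mature oligodendrocyte-like cells, a log2 fold change of -6.49 ± 0.47 (edgeR adjusted p = 2.92e-10). Gjc3 was at 23.7 and 26.6 CPM in astrocyte-like cells, against 812 and 625 CPM in mature oligodendrocyte-like cells, a log2 fold change of -5.04 ± 0.56 (edgeR adjusted p = 1.27e-07). With Gja5, 5 of the 9 genes were called in this comparison, 3 higher and 2 lower, where 40.4% of all tested genes were called, 22.9% higher and 17.5% lower.

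Gja5 was called higher in astrocyte-like cells at a very low level. It had 36 and 7 UMIs there (2.31 and 1.96 CPM), against 8 and 11 UMIs (0.14 and 0.21 CPM) in mature oligodendrocyte-like cells, with a log2 fold change of 3.37 ± 0.75 (edgeR adjusted p = 0.00106). Gja4, Gjc1, Gjd2 and Panx1 were under 4 CPM in both classes of both mice and were not called.

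Against the mean of the 14 other classes, Gja1 rose by 7.87 ± 0.31 and Gjb6 by 8.07 ± 0.28 on the log2 scale in astrocyte-like cells (SE; edgeR adjusted p = 2.41e-15 and 3.19e-16). Gja5 rose by 3.81 ± 0.69 (edgeR adjusted p = 0.000173), a fitted value that rests partly on classes at 0 UMIs. Gja4, Gjc1, Panx1 and Gjb1 were lower in astrocyte-like cells, with log2 fold changes of -2.62 ± 0.67, -2.75 ± 0.55, -3.20 ± 0.63 and -1.11 ± 0.41 (edgeR adjusted p = 0.0024, 0.000227, 0.000204 and 0.0268). Low levels of these genes were not particular to astrocyte-like cells, whose means were 0.33, 2.43, 0.52 and 2.61 CPM. They ranked 10, 11, 13 and 14 among the 15 classes. The lowest class means were 0.14, 0.54, 0.28 and 1.12 CPM. Gjc3 was not called (log2 fold change -0.60 ± 0.38), but it was at a mitochondrial limit of 5% (-1.14, edgeR adjusted p = 0.0281). That limit also took smooth muscle-like and leptomeningeal fibroblast-like cells out of the mean of the others, since too few cells were left. In this comparison 7 of the 9 genes passed, 3 of them higher and 4 lower, where 34.3% of all tested genes were, 21.5% higher and 12.8% lower. The call on Gjb1 was lost without the mouse block (-1.05, edgeR adjusted p = 0.0644), at clustering resolution 2 (-1.0, edgeR adjusted p = 0.0642) and in thinned cells (-0.86), where each cell was reduced at random to 2000 UMIs. In thinned cells the calls on Gja4 and Panx1 were lost as well, Gja5 was not tested, and those on Gja1, Gjb6 and Gjc1 were kept.

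Astrocyte-like cells carried both connexin transcripts in the same cells. With every UMI used, 97.8% of 1030 astrocyte-like cells of mouse 1 and 88.1% of 362 cells of mouse 2 had at least 1 UMI of both Gja1 and Gjb6, at median depths of 14472 and 8952 UMIs per cell. With each cell thinned to 2000 UMIs, 51.5% of 1028 and 49.2% of 356 cells had both, leaving out 2 and 6 shallower cells. At this depth Gja1 alone was seen in 26.3% and 34.3%, Gjb6 alone in 13.5% and 8.99%, and neither in 8.75% and 7.58%. Among thinned astrocyte-like cells with Gja1, 66.2% and 58.9% also had Gjb6, and among those without Gja1, 60.7% and 54.2% had it. Thinned microglia-like cells, not known for either gene, had Gja1 in 1.28% (exact binomial 95% interval 0.642% to 2.28%) of 857 cells and in 0 of 517 cells, which allows up to 0.58%. They had Gjb6 in 1.05% and 0.387%. Intervals and limits cover counting error only.

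The astrocyte-like class was made of 2 clusters. In cluster 9, led by Cldn10, Aqp4 and Aldoc, Gja1 was at 1365 and 1357 CPM, and in cluster 7, led by Gli2, it was at 727 and 974 CPM. Gjb6 was at 722 and 506 CPM in cluster 9 and at 495 and 444 CPM in cluster 7. Both genes were higher in cluster 9 in each mouse, which is a description with no test. Mouse 1 gave 663 of its 1030 astrocyte-like cells to cluster 7, whereas mouse 2 gave 112 of 362.

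Among the 15 classes compared, vascular leptomeningeal fibroblast-like cells came after astrocyte-like cells for both genes, at 119 and 157 CPM for Gja1 and 197 and 123 CPM for Gjb6. These levels rest on 21 and 48 cells. Ependymal-like cells, too few to be compared at 4 and 29 cells, had Gja1 at 174 and 205 CPM. The 12 astrocyte markers summed to 895 and 1422 CPM in the fibroblast-like cells, against 15322 and 14861 CPM in astrocyte-like cells. Of these markers 2 were enriched in the fibroblast-like cluster. Their part in the levels of Gja1 and Gjb6 was not tested. There were 1.66 and 0.786 UMIs of Gjb6 per UMI of Gja1 in the fibroblast-like cells, against 0.609 and 0.396 in astrocyte-like cells. Gja1 then followed in arterial endothelial-like cells (79.3 and 95.6 CPM) and other endothelial-like cells (32.6 and 53.0 CPM), and each of these 4 classes was separated from the next in both mice. From the fifth of the compared classes down no class mean of Gja1 exceeded 5.38 CPM, and the classes overlapped. For Gjb6, no class below the second exceeded a mean of 4.65 CPM. Gjb2 (Cx26), which shares leptomeningeal and astrocyte expression with Gjb6, was at 16.1 and 17.9 CPM in astrocyte-like cells and at 337 and 121 CPM in the fibroblast-like cells.

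Among genes that regulate or anchor gap junctions, 9 of the 21 tested (of 22 listed) were called higher and 1 lower in astrocyte-like against mature oligodendrocyte-like cells, beside 22.9% and 17.5% of all tested genes. Their median log2 fold change was 0.87, and that of all genes 0.12. Mlc1, an astrocyte membrane protein, was at 137 and 161 CPM in astrocyte-like cells, against 3.55 and 2.72 CPM in mature oligodendrocyte-like cells (log2 fold change 5.43 ± 0.50). The ubiquitin ligase gene Nedd4l and the kinase genes Prkce and Src were also higher, with log2 fold changes of 2.63 ± 0.28, 2.40 ± 0.25 and 2.34 ± 0.30. Against the mean of the other classes, 9 of these 21 were called higher and 4 lower (median 0.35, all genes 0.08), beside 21.5% and 12.8% of all tested genes. Hepacam, the binding partner of Mlc1, was at 482 and 567 CPM in astrocyte-like cells, against means of 48.8 and 53.9 CPM over the other classes. Cdh2 (N-cadherin) was higher by 2.72 ± 0.20 and Cav1 (caveolin) was at -3.21 ± 0.52 on the log2 scale.

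Of the genes for ATP release and purinergic signalling, 11 of 23 tested (of 27 listed) were called higher and 6 lower in astrocyte-like against mature oligodendrocyte-like cells, again beside 22.9% and 17.5% of all tested genes (median 0.25, all genes 0.12). The ectonucleotidase gene Entpd2 was at 56.2 and 55.5 CPM in astrocyte-like cells, against 0.39 and 0.17 CPM in mature oligodendrocyte-like cells (7.38 ± 0.53). Entpd1 was also higher (5.66 ± 0.51). Lrrc8b and Lrrc8d, subunits of volume-regulated anion channels, were lower at -4.61 ± 0.32 and -2.53 ± 0.30 on the log2 scale. Against the mean of the other classes 9 of the 23 were called higher and 2 lower (median -0.05), beside 21.5% and 12.8% of all tested genes. Adora1, an adenosine receptor gene, was among those higher, at 2.64 ± 0.28. Of the other connexins and pannexins, 3 of 14 were tested, and Gjb2 was called higher in both astrocyte comparisons.

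Oligodendrocytes pass through precursor, committed and myelinating stages, and their connexins differed by stage. Gjc3 was at 535 and 359 CPM in oligodendrocyte precursor-like cells, at 1693 and 882 CPM in committed precursor-like cells and at 812 and 625 CPM in mature oligodendrocyte-like cells. The committed stage was the highest in each mouse, although the level of mouse 2 there lay close to the mature level of mouse 1. Gjb1 was at 12.1 and 5.74 CPM, 3.32 and 4.19 CPM, and 213 and 185 CPM over the same stages. It was thus high in the mature stage and low in both earlier ones. Panx1 was at 17.2 and 18.7 CPM in precursor-like cells, 52.1 and 46.3 CPM in committed precursor-like cells and 0.39 and 0.27 CPM in mature oligodendrocyte-like cells. Its 3 stages did not overlap.

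**Figure D2:**
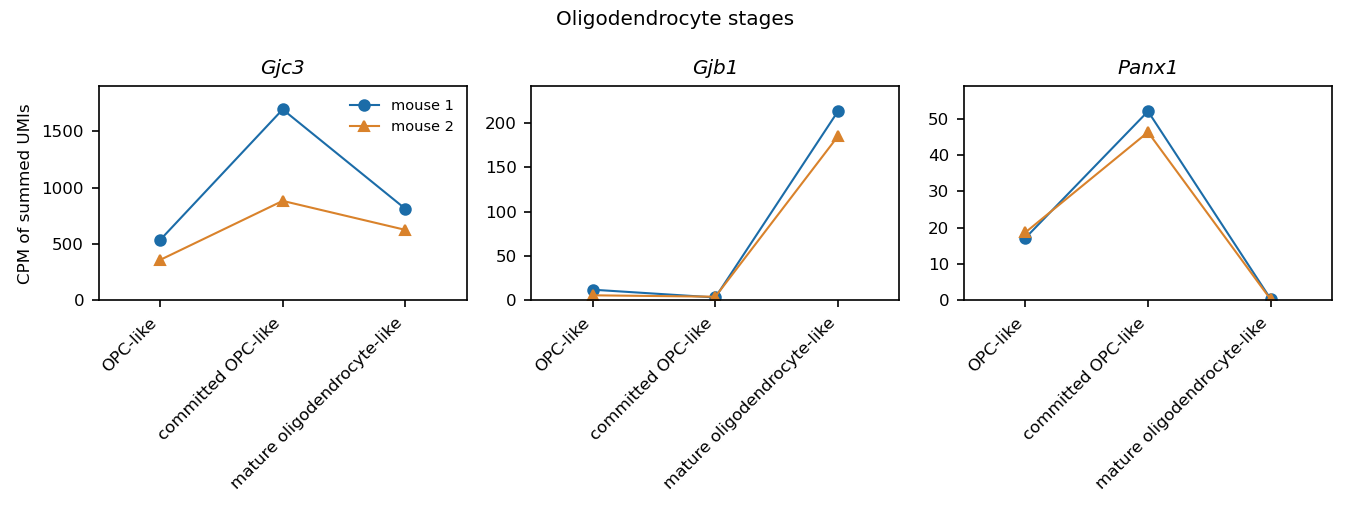
Level of Gjc3, Gjb1 and Panx1 (CPM of summed UMIs, axes from 0) in the 3 oligodendrocyte stages; each line is 1 mouse. Gjc3 and Panx1 peak at the committed stage, whereas Gjb1 is highest in mature oligodendrocyte-like cells, at 213 and 185 CPM.

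In mature oligodendrocyte-like against precursor-like cells, Gjb1 rose by 5.0 ± 0.43 on the log2 scale (SE; edgeR adjusted p = 4.33e-09) and Panx1 was lower, with a log2 fold change of -5.36 ± 0.50 (edgeR adjusted p = 1.44e-08). The difference in Gjc3 was 1.07 ± 0.47 and missed the threshold (edgeR adjusted p = 0.0711), but it passed when doublets were kept (1.12, edgeR adjusted p = 0.0412) and in thinned cells (1.09, edgeR adjusted p = 0.00254). In this comparison 2 of the 9 genes were called, 1 in each direction, where 36.1% of all tested genes were, 14.3% higher and 21.9% lower.

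In committed precursor-like against precursor-like cells, Gjc3 rose by 1.5 ± 0.48 (edgeR adjusted p = 0.0202) and Panx1 by 1.42 ± 0.42 (edgeR adjusted p = 0.0127), and these were the 2 genes called, where 23.4% of all tested genes were, 8.39% higher and 15% lower. Each mouse alone gave 1.66 and 1.28 for Gjc3 and 1.58 and 1.28 for Panx1. The call on Gjc3 was lost without the filter on low counts (1.52, edgeR adjusted p = 0.0661) and that on Panx1 in thinned cells (1.59, edgeR adjusted p = 0.117). Gjb1 was at -1.0 ± 0.52 (edgeR adjusted p = 0.157).

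In mature oligodendrocyte-like against committed precursor-like cells, Gjb1 rose by 6.00 ± 0.48 (edgeR adjusted p = 4.19e-09) and Panx1 was lower at -6.79 ± 0.52 (edgeR adjusted p = 2.43e-09), the 2 genes called where 24% of all tested genes were, 10.5% higher and 13.4% lower. Gjc3 was at -0.43 ± 0.47 (edgeR adjusted p = 0.546). Gja4 at -2.54 ± 0.96 and Gjc1 at -1.91 ± 0.73 lay just outside the threshold (edgeR adjusted p = 0.0508 and 0.0533). Both were called lower with size factors (edgeR adjusted p = 0.0421 and 0.0454), with DESeq2 (adjusted p = 0.00227 and 0.00612) and with doublets kept (edgeR adjusted p = 0.0284 and 0.0332), which made 4 genes called. They rest on 5 and 2 UMIs of Gja4 and 12 and 8 UMIs of Gjc1 in committed precursor-like cells.

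Gjb1 and Gjc3 were found in the same mature cells. With all UMIs used, 95.3% of 1969 cells of mouse 1 and 78.2% of 3304 cells of mouse 2 had both, at median depths of 25257 and 14504 UMIs. Thinned to 2000 UMIs, 27.5% and 18.8% had both, 51.5% and 50.2% had Gjc3 alone, and 6.92% and 8.87% had Gjb1 alone. Among thinned cells with Gjb1, 79.9% and 67.9% had Gjc3, beside 78.5% and 69.4% among those without Gjb1. In thinned committed precursor-like cells Gjb1 was seen in 0 of 46 cells and 1 of 145 cells, and Gjc3 in 78.3% and 68.3%. Thinned microglia-like cells had Gjc3 in 1.98% and 2.90% and Gjb1 in 0.933% and 0.387%.

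The proportion of the 2 transcripts was also compared between classes, as a description with no test. There were 0.262 and 0.296 UMIs of Gjb1 per UMI of Gjc3 in mature oligodendrocyte-like cells. Outside the lineage the proportion was 0.316 and 0.28 in glutamatergic neuron-like cells, 0.292 and 0.32 in smooth muscle-like cells and 0.319 and 0.0991 in microglia-like cells, the last value from 11 and 111 UMIs. In astrocyte-like cells it was lower, at 0.114 and 0.0947. In precursor-like cells it was 0.0226 and 0.016 and in committed precursor-like cells 0.00196 and 0.00475, so Gjc3 was read in these stages with little Gjb1. The 15 mature oligodendrocyte markers were detected in glutamatergic neuron-like cells at a sum of 1077 and 951 CPM, against 60307 and 68749 CPM in mature oligodendrocyte-like cells. Their part in the low levels was not tested.

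Within the mature class, Gjb1 and Gjc3 ran in opposite order over the 4 clusters that held at least 20 cells of each mouse. Gjb1 was at 147 and 111 CPM in cluster 1 (led by 7630403G23Rik and Kit) and 190 and 151 CPM in cluster 3 (Gstp1, Cryab). It was at 275 and 210 CPM in cluster 5 (Anln) and 390 and 319 CPM in cluster 10 (Klk6). Gjc3 was at 888 and 704 CPM, 823 and 667 CPM, 778 and 634 CPM, and 606 and 510 CPM in the same clusters. Each mouse gave the same order for each gene. This is a description, with no test, since clusters of 1 class were compared. A further cluster of the class, with 1431 cells, came almost wholly from mouse 2, where mouse 1 gave 11 cells.

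**Figure D3:**
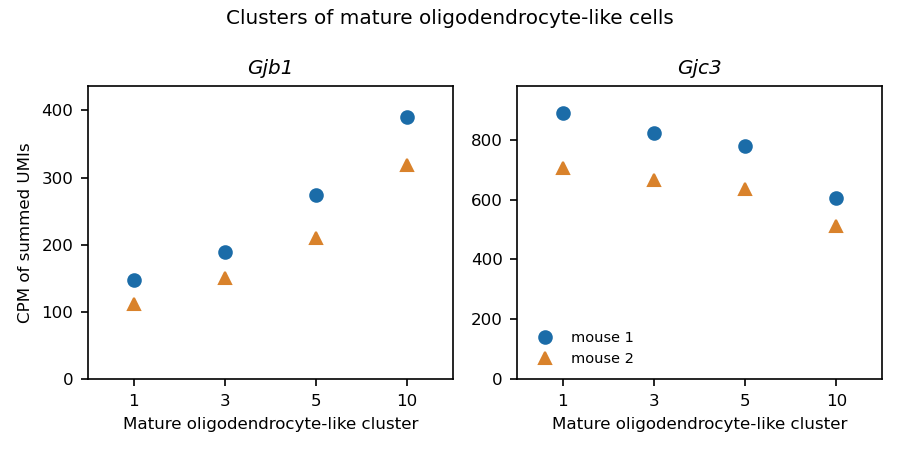
Level of Gjb1 and Gjc3 (CPM of summed UMIs, axes from 0) in 4 clusters of mature oligodendrocyte-like cells, ordered by Gjb1; points are single mice. Gjb1 runs up to 390 and 319 CPM in cluster 10, where Gjc3 has its lowest values of 606 and 510 CPM.

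Scaffold and regulatory partners were called higher in 3 and lower in 6 of 21 cases in mature oligodendrocyte-like against precursor-like cells (median 0.00, all genes -0.01). Of all tested genes, 14.3% were called higher and 21.9% lower there. Cav1 was at 1.91 and 1.09 CPM in mature cells, against 85.0 and 122 CPM in precursor-like cells (-5.79 ± 0.51), and Prkce, Src and Hepacam were at -2.99 ± 0.25, -2.37 ± 0.30 and 1.78 ± 0.46. In committed precursor-like against precursor-like cells 1 was called higher and 4 lower (median -0.47, all genes -0.14), beside 8.39% and 15% of all tested genes. Hepacam was at -3.03 ± 0.51 and Nedd4l at 1.48 ± 0.28. In mature against committed precursor-like cells 3 were called higher and 3 lower (median -0.02, all genes 0.12), beside 10.5% and 13.4% of all tested genes. Hepacam was at 4.81 ± 0.54 there.

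P2rx7, an ATP-gated channel gene, was at 7.76 and 13.9 CPM in committed precursor-like cells, against 72.4 and 80.5 CPM in precursor-like cells (-2.79 ± 0.45). Adora1 was at 86.8 and 102 CPM, 3.88 and 6.02 CPM, and 73.6 and 99.3 CPM over the 3 stages. Of the 23 tested genes of the ATP and purinergic list, 2 were called higher and 9 lower in mature against precursor-like cells (median -0.77, all genes -0.01), where 14.3% and 21.9% of all tested genes were. In committed against precursor-like cells these counts were 2 and 8 (median -0.77, all genes -0.14), beside 8.39% and 15%. In mature against committed cells they were 4 and 4 (median -0.50, all genes 0.12), beside 10.5% and 13.4%. Lrrc8b was among those higher in mature against precursor-like cells (2.76 ± 0.29) and in committed against precursor-like cells (2.03 ± 0.29), and Lrrc8c in mature against precursor-like cells (1.59 ± 0.38).

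Arteries conduct electrical signals along their wall through Cx37, Cx40, Cx43 and Cx45. Arterial endothelial-like cells numbered 69 and 48, against 482 and 358 other endothelial-like cells. Gja4 was at 54.2 and 46.2 CPM in arterial endothelial-like cells, against 3.54 and 2.62 CPM in other endothelial-like cells. It rose by 3.90 ± 0.53 on the log2 scale (SE; edgeR adjusted p = 0.000167), and each mouse alone gave 3.81 and 3.94. Gja5 had 13 UMIs and 1 UMI in arterial endothelial-like cells, against 0 UMIs in other endothelial-like cells of both mice. It was called higher (edgeR adjusted p = 0.0103), and against a limit of 3 UMIs over both mice the pooled level was at least 23.3-fold higher. Most of these reads came from mouse 1. These were the 2 genes of 9 called, where 1.33% of all tested genes were, 0.958% higher and 0.376% lower.

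Gja1 was at 79.3 and 95.6 CPM in arterial endothelial-like cells, against 32.6 and 53.0 CPM in other endothelial-like cells, with a log2 fold change of 0.83 ± 0.71 (edgeR adjusted p = 0.894). Gjc1 was at 93.3 and 122 CPM in arterial endothelial-like cells, against 184 and 222 CPM in other endothelial-like cells (-1.01 ± 0.48, edgeR adjusted p = 0.582). The 2 classes did not overlap for either gene, but neither difference passed the test. The call on Gja4 was lost when the cells were clustered at resolution 2 (2.09, edgeR adjusted p = 0.867), where Gja5 was not among the genes tested. At that resolution a cluster led by Gkn3, Vegfc and Bmx, with 84 and 51 cells, stayed unnamed and out of the arterial class, and the calls over all 16954 genes tested were 10 higher and 7 lower. The call on Gja5 was lost with a lower limit of 500 UMIs and 300 genes per cell (edgeR adjusted p = 0.125).

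Mural markers were also present in arterial endothelial-like cells. The 9 smooth muscle markers summed to 234 and 340 CPM there, against 87.7 and 90.2 CPM in other endothelial-like cells and 36919 and 28752 CPM in smooth muscle-like cells. The 10 pericyte markers summed to 761 and 3439 CPM, against 1192 and 1404 CPM in other endothelial-like cells and 32039 and 27399 CPM in pericyte-like cells. The part of these cells in the level of Gja4 was not tested.

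**Figure D4:**
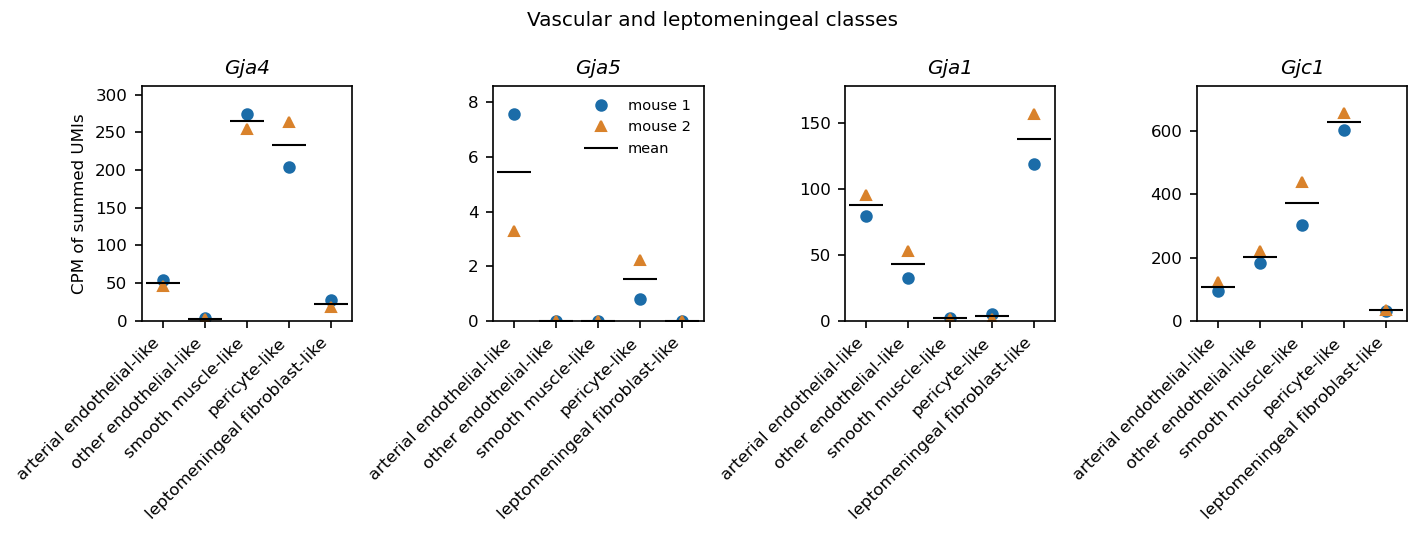
Level of Gja4, Gja5, Gja1 and Gjc1 (CPM of summed UMIs, axes from 0) in endothelial-like, mural-like and leptomeningeal fibroblast-like classes; points are single mice and bars their mean. Gja4 and Gjc1 are highest in the mural-like classes, whereas Gja1 is high in the endothelial-like and fibroblast-like classes and at most 5.22 CPM in the mural-like ones.

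Mural-like cells, which wrap the vessels, carried Gja4 and Gjc1 and almost no Gja1. In the mean of the 2 endothelial-like classes Gja4 was at 28.9 and 24.4 CPM, against 239 and 259 CPM in the mean of smooth muscle-like and pericyte-like cells (log2 fold change -4.22 ± 0.33, edgeR adjusted p = 1.27e-09). Gjc1 was at 139 and 172 CPM in endothelial-like classes, against 454 and 548 CPM in mural-like classes (-1.70 ± 0.33, edgeR adjusted p = 0.000354). Gja1 ran the other way, at 55.9 and 74.3 CPM in endothelial-like classes, against 3.71 and 1.57 CPM in mural-like classes (4.59 ± 0.71, edgeR adjusted p = 2.19e-05). No side overlapped the other for these 3 genes, which were the 3 of 9 called, where 23.1% of all tested genes were, 11.5% higher and 11.7% lower.

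Between the mural-like classes the vascular connexins did not differ beyond the test. Gja4 was at 275 and 254 CPM in smooth muscle-like cells, against 204 and 264 CPM in pericyte-like cells (0.44 ± 0.37, edgeR adjusted p = 0.551), and the classes overlapped. Gjc1 was at 303 and 440 CPM in smooth muscle-like cells, against 604 and 656 CPM in pericyte-like cells (-0.49 ± 0.45, edgeR adjusted p = 0.598). The 1 gene called of 9 was Gjb1, where 10.8% of all tested genes were called, 6.13% higher and 4.67% lower. It was at 15.4 and 8.85 CPM in smooth muscle-like cells, against 4.41 and 2.98 CPM in pericyte-like cells (1.91 ± 0.62, edgeR adjusted p = 0.0459). The 15 mature oligodendrocyte markers summed to 5325 and 3371 CPM in smooth muscle-like cells, against 1713 and 2629 CPM in pericyte-like cells, and their part in this level was not tested. The call was lost under 5 of the alternatives, among them the fit without the mouse block (1.84, edgeR adjusted p = 0.105).

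With all UMIs used, 88% of 50 smooth muscle-like cells of mouse 1 and 69.6% of 207 of mouse 2 had both Gja4 and Gjc1, at median depths of 14174 and 8295 UMIs. Thinned to 2000 UMIs, 18% and 25.6% had both, 18% and 15.9% had Gja4 alone and 36% and 32.4% had Gjc1 alone. Single genes were seen at this depth in 31.8% and 38.3% of pericyte-like cells for Gja4 and in 64.2% and 67.4% for Gjc1. In thinned microglia-like cells Gja4 was seen in 0 of 857 and 1 of 517 cells, and Gjc1 in 0 of 857 and 2 of 517.

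The order of Gjc1 levels was pericyte-like, smooth muscle-like, other endothelial-like and arterial endothelial-like, each separated from the next in both mice. Glutamatergic neuron-like cells followed at 58.8 and 29.0 CPM and overlapped vascular leptomeningeal fibroblast-like cells at 30.6 and 35.9 CPM. For Gja4 the mural-like classes were followed by arterial endothelial-like cells and then by fibroblast-like cells at 27.2 and 17.9 CPM, and other endothelial-like cells overlapped the classes below them.

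Among scaffold and regulatory partners, 1 of 21 was called higher and 1 lower in arterial against other endothelial-like cells (median 0.09, all genes -0.08). Of all tested genes, 0.958% were called higher and 0.376% lower there. Ccn3, which encodes a matrix protein that binds Cx43, was at 110 and 158 CPM in arterial endothelial-like cells, against 19.1 and 1.05 CPM in other endothelial-like cells (3.75 ± 0.85, edgeR adjusted p = 0.0327). Against mural-like cells 8 were called higher and 3 lower in endothelial-like cells (median 0.80, all genes -0.04), beside 11.5% and 11.7% of all tested genes. Ccn3, Cav1 and Cgnl1, which encodes a junction protein, were higher in endothelial-like cells by 4.98 ± 0.85, 2.34 ± 0.33 and 2.24 ± 0.27. In smooth muscle-like against pericyte-like cells 1 was called higher and 5 lower (median 0.05, all genes -0.05), beside 6.13% and 4.67% of all tested genes. Cav1 was at 222 and 209 CPM in smooth muscle-like cells, against 13.6 and 23.8 CPM in pericyte-like cells (3.84 ± 0.50), and Nedd4l, Cdh2 and Cgnl1 were at -3.70 ± 0.33, -3.14 ± 0.40 and -2.73 ± 0.41.

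In arterial against other endothelial-like cells, 0.958% of all tested genes were called higher and 0.376% lower. In the ATP and purinergic list, 0 of 23 were called higher and 1 lower there (median 0.16). That gene, Lrrc8b, was at 25.6 and 26.4 CPM, against 94.8 and 80.3 CPM (-1.80 ± 0.34, edgeR adjusted p = 0.00535). In endothelial-like against mural-like cells 6 were called higher and 4 lower (median -0.42), beside 11.5% and 11.7% of all tested genes. In smooth muscle-like against pericyte-like cells 2 were called higher and 4 lower (median -0.28), beside 6.13% and 4.67%. The UDP-glucose receptor gene P2ry14 was at 3.79 and 2.44 CPM in endothelial-like cells, against 636 and 355 CPM in mural-like cells (-6.57 ± 0.50). Within mural-like cells it was at 148 and 105 CPM in smooth muscle-like cells, against 1125 and 605 CPM in pericyte-like cells (-2.54 ± 0.49). Entpd1 was at 252 and 216 CPM in smooth muscle-like cells, against 4.01 and 3.72 CPM in pericyte-like cells (6.23 ± 0.60), and was also higher in endothelial-like than in mural-like cells (2.91 ± 0.36). Adora2a was lower in endothelial-like than in mural-like cells (-3.77 ± 0.35) and in smooth muscle-like than in pericyte-like cells (-2.12 ± 0.39).

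Gjd2, the connexin gene of electrical synapses, was read at few UMIs. It was at 12.2 and 6.90 CPM in neuron-like cells of unresolved transmitter, 10.1 and 7.80 CPM in GABAergic neuron-like cells, 5.16 and 3.88 CPM in glutamatergic neuron-like cells and 0.13 and 1.23 CPM in habenular neuron-like cells. Within the unresolved class, cluster 24 (Cbln1 and Cbln4 among its top genes) was at 14.7 and 14.4 CPM, against 8.26 and 5.12 CPM in cluster 19 and 3.91 and 1.78 CPM in cluster 22. Cluster 24 gave 68 of the 128 cells of mouse 1 and 70 of the 402 cells of mouse 2, so the class level moved with the mix of clusters. The unresolved and GABAergic classes overlapped, and GABAergic neuron-like cells were separated from glutamatergic neuron-like cells. Arterial endothelial-like, other endothelial-like, smooth muscle-like, committed precursor-like and border macrophage-like cells had 0 UMIs in both mice. The mean over the 4 neuron-like classes was 6.90 and 4.95 CPM, against 0.51 and 0.17 CPM over the 11 other classes. Gjd2 rose by 5.48 ± 0.55 on the log2 scale in neuron-like classes (edgeR adjusted p = 1.19e-07), a fitted value that rests partly on classes at 0.

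Panx1 was also higher in neuron-like classes on the log2 scale (1.91 ± 0.24, edgeR adjusted p = 4.38e-07), although committed precursor-like cells had the highest level of all. Its mean was 8.07 and 9.80 CPM over neuron-like classes, against 8.63 and 6.76 CPM over the others, because the log2 fold change weights each class equally on the log scale. Gja1, Gjb6, Gjc3 and Gja4 were lower in neuron-like classes, with log2 fold changes of -2.52 ± 0.44, -1.49 ± 0.46, -1.96 ± 0.24 and -2.28 ± 0.53 (edgeR adjusted p = 3.25e-05, 0.00731, 2.28e-07 and 0.000625). Many non-neuronal classes were about as low. Neuron-like means of Gjb6 were 1.68 to 2.57 CPM, against 1.10 to 4.65 CPM outside astrocyte-like and fibroblast-like cells. For Gjc3 they were 11.3 to 24.7 CPM, against 12.7 to 40.3 CPM outside the oligodendrocyte stages. For Gja4 they were 0.29 to 2.41 CPM, against 0.14 to 1.65 CPM outside the vascular and fibroblast-like classes. Gjc1 was at 0.18 ± 0.25 (edgeR adjusted p = 0.596). In this comparison 6 of the 9 genes passed, 2 of them higher and 4 lower, where 38.6% of all tested genes were, 25% higher and 13.6% lower. In thinned cells only Gjd2 was called. The call on Gjb6 was also lost without the mouse block (-1.44, edgeR adjusted p = 0.0769), and that on Gja4 with a mitochondrial limit of 5% (-1.17, edgeR adjusted p = 0.0563). With that limit smooth muscle-like cells, which had the highest Gja4 mean, and fibroblast-like cells were no longer among the non-neuronal classes.

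The neuron-like classes differed in Gjc1, a connexin better known from vessels. In GABAergic neuron-like cells Gjc1 was at 4.43 and 14.1 CPM, against 58.8 and 29.0 CPM in glutamatergic neuron-like cells (-2.49 ± 0.54, edgeR adjusted p = 0.00258). In habenular neuron-like cells it was at 4.84 and 7.76 CPM, against the same glutamatergic values (-2.93 ± 0.51, edgeR adjusted p = 0.000128). Neither class overlapped the glutamatergic one. The glutamatergic class differed in its mix of clusters between the mice. Cluster 14 (Cck and Tnnt1 among its top genes) gave 117 of its 215 cells in mouse 1 and 334 of its 1706 cells in mouse 2. The part of this mix in the level of Gjc1 was not tested. The summed pericyte markers were at 53.9 and 24.1 CPM in glutamatergic neuron-like cells and at 37.1 and 49.8 CPM in GABAergic neuron-like cells. With all UMIs, 84.7% of 215 and 47.2% of 1706 glutamatergic neuron-like cells had Gjc1, at median depths of 86657 and 42822 UMIs, beside 1.00% and 1.54% of microglia-like cells at 12676 and 9445 UMIs.

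Gjd2 was lower in habenular than in glutamatergic neuron-like cells (-2.72 ± 0.69, edgeR adjusted p = 0.00738), with 1 and 12 UMIs against 101 and 294 UMIs, so that with Gjc1 2 of the 9 genes were called, where 21.1% of all tested genes were, 8.75% higher and 12.3% lower. In GABAergic against glutamatergic neuron-like cells the differences in Gjd2 (0.73 ± 0.60) and Panx1 (0.72 ± 0.43) missed the threshold (edgeR adjusted p = 0.488 and 0.308). Besides Gjc1, Gja4 was called higher there, which made 2 of the 9 genes, where 12.1% of all tested genes were called, 5.07% higher and 7.04% lower. Gja4 had 0 and 13 UMIs in GABAergic neuron-like cells, against 7 and 17 UMIs in glutamatergic neuron-like cells (2.94 ± 0.77, edgeR adjusted p = 0.0115), and mouse 1 alone ran the other way at -1.56. This call was lost when doublets were kept (1.45, edgeR adjusted p = 0.062) and in thinned cells. With doublets kept the GABAergic class held 69 and 249 cells, against 48 and 63 in the main setting. It then took in a cluster led by Gad2 and 6330403K07Rik, the latter a leading gene of an unresolved cluster in the main setting. Panx1 did not differ beyond the test between habenular and glutamatergic neuron-like cells (-0.40 ± 0.42, edgeR adjusted p = 0.543). Glutamatergic and habenular comparisons share the glutamatergic sums.

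**Figure D5:**
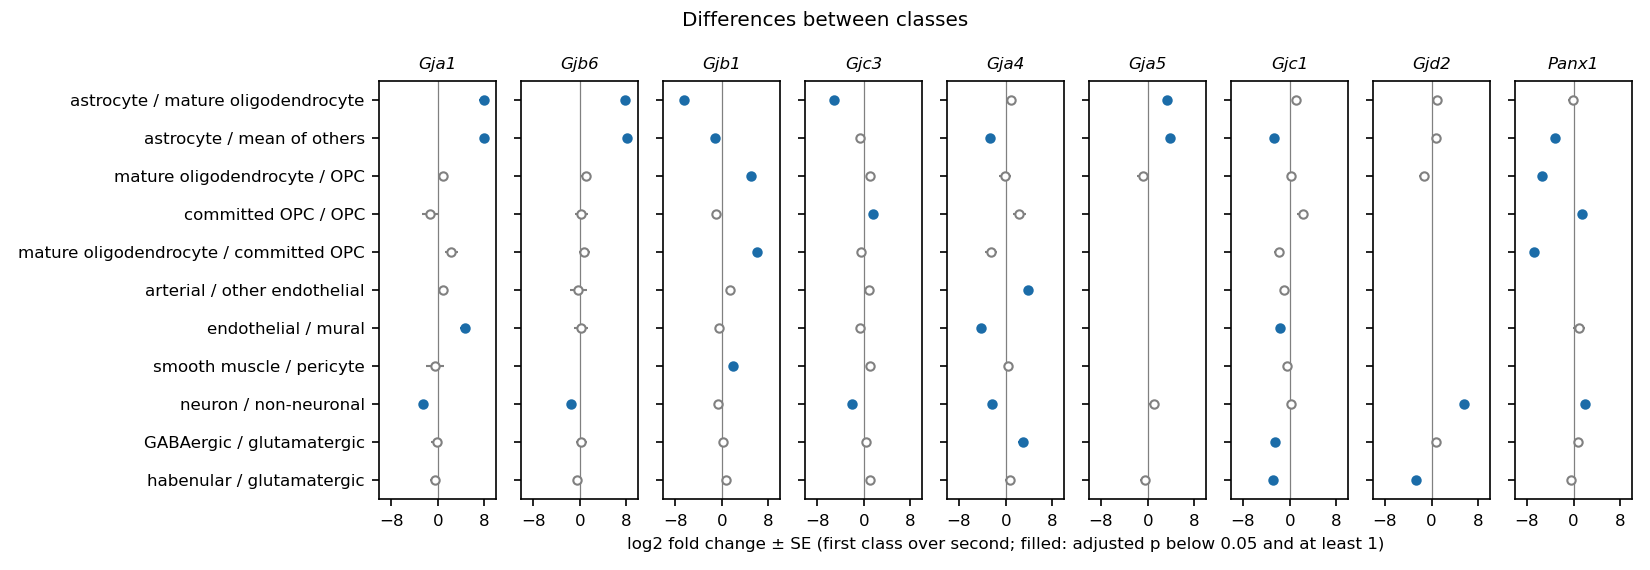
Log2 fold change with its standard error of each gene (panels) in the 11 comparisons (rows, first class over second); filled points were called and open points were not, and values with a side at 3 UMIs or fewer are not drawn. Gja1 and Gjb6 stand at 7.77 or more in both astrocyte comparisons, and Panx1 is at -5.36 and -6.79 in mature oligodendrocyte-like cells against the 2 precursor stages.

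Panx2, the pannexin gene best known from neurons, was at 42.3 and 31.2 CPM in GABAergic, 23.1 and 18.3 CPM in habenular, 29.7 and 25.0 CPM in glutamatergic and 34.0 and 24.2 CPM in unresolved neuron-like cells, and in no other class above 6.28 CPM. It was the 1 of 3 tested genes among the other connexins and pannexins called higher in neuron-like classes. Of all tested genes, 25% were called higher and 13.6% lower there. Scaffold and regulatory partners were called higher in 6 and lower in 5 of 21 cases in neuron-like classes (median -0.03, all genes 0.10). Camk2a, a neuronal kinase gene, and Dbn1 (drebrin) were higher by 4.51 ± 0.30 and 3.23 ± 0.16, and Cav1 was at -3.29 ± 0.41. In the ATP and purinergic list 3 of 23 were called higher and 6 lower (median -0.73), with Entpd1 at -3.83 ± 0.55 and Lrrc8c at -1.36 ± 0.18.

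In GABAergic against glutamatergic neuron-like cells, 2 scaffold and regulatory partners were called higher and 5 lower (median -0.43, all genes -0.08). Of all tested genes, 5.07% were called higher and 7.04% lower there. The kinase gene Prkcd, which also served as a marker of glutamatergic neuron-like cells, was at -6.55 ± 0.60, so that its direction was fixed by the class. Camk2a and Cdh2 were at -2.33 ± 0.65 and -1.32 ± 0.36, and Prkca at 1.78 ± 0.31. In the ATP and purinergic list 0 were called higher and 4 lower (median -0.29), among them Adora1 at 17.7 and 18.2 CPM, against 127 and 70.8 CPM (-2.74 ± 0.46). In habenular against glutamatergic neuron-like cells, 2 scaffold partners were called higher and 6 lower (median -0.23, all genes -0.05), with Camk2a at -4.17 ± 0.71, Cdh2 at -2.44 ± 0.37 and Prkce at -2.07 ± 0.24. Of all tested genes, 8.75% were called higher and 12.3% lower there. The 6 lower partners included the marker Prkcd, whose direction was again fixed by the class. The ATP and purinergic list had 1 called higher, Lrrc8d (1.09 ± 0.28), and 2 lower (median -0.02), with Adora1 at -4.61 ± 0.49.

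Panx1 was highest in the early oligodendrocyte stages, and neuron-like cells followed. In the order of class means it was separated between committed precursor-like cells (49.2 CPM), oligodendrocyte precursor-like cells (17.9 CPM) and GABAergic neuron-like cells (12.7 CPM), and from there neighbouring classes mostly overlapped, with microglia-like and border macrophage-like cells level with habenular neuron-like cells. The few ependymal-like cells, outside this order, were at 24.9 and 16.6 CPM from 2 and 8 UMIs. Thinned to 2000 UMIs, 13% of 46 and 8.28% of 145 committed precursor-like cells had a Panx1 UMI, beside 0.933% of 857 and 0.58% of 517 microglia-like cells. Microglia-like cells were at 7.48 and 3.37 CPM and astrocyte-like cells at 0.19 and 0.84 CPM.

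The genes most like each member over the 30 sums of class and mouse were found by Pearson correlation of log2(CPM + 1), as a description, since sums of 1 mouse share a library. For Gja1 they were Heph, Aox1 and Fmo1, with r between 0.866 and 0.883. For Gjb6 they were A2m, Klhdc7a and Nat8f7 (0.933 to 0.952). Cyp2j12, Gm42756 and Plekhh1 were nearest to Gjb1 (0.898 to 0.927), and Sox10, Bcas1 and 2810468N07Rik to Gjc3 (0.958 to 0.974). Gper1, Myl9 and Des were nearest to Gja4 (0.948 to 0.982), and Mprip, Dysf and Rgs5 to Gjc1 (0.912 to 0.949). Rnf128, Ptpro and Hrk were nearest to Panx1, at lower values of 0.831 to 0.906. Bcas1, Myl9 and Rgs5 were also among the markers that defined classes. Gja5 and Gjd2 did not reach 20 CPM in both mice of any class and were not searched.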

How the data were processed

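Single cells from the thalami of 2 mice were profiled with 1 library per mouse. The authors deposited raw UMI counts per gene and barcode. Per the submitters' processing notes, the tools were Seurat 5 and Cell Ranger 7.1.0 and the build was mm10. Strand and intron settings of the counting are not given in these sources. The barcodes and gene tables hold no measurements. The libraries held 163418203 and 204839993 UMIs in 7889 and 12107 barcodes, each with at least 500 UMIs.

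Cells with under 1000 UMIs, under 500 genes or over 15% mitochondrial UMIs were removed, as were 181 and 262 doublets marked by Scrublet per mouse, 2.84% and 2.78% of the passing barcodes. Leiden clustering (scanpy 1.11.5, 2000 variable genes, 30 components, resolution 1) gave clusters that were named from marker lists, and endothelial cells were clustered again within each mouse. Variable genes left out the 9 genes and 3 lists. Clusters with mixed markers stayed unnamed and out of the comparisons.

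Counts were summed per mouse and class with at least 20 cells in each mouse, which gave 30 sums of 15 classes. They were fitted together with edgeR 4.0.16 (quasi-likelihood, TMM scaling, robust, 14 residual degrees of freedom) in R 4.3.3. The mouse was a block because every class came from the same 2 animals. Deviations of mouse 1 from the class means had a median correlation of 0.193 over 105 pairs of classes (range 0.0599 to 0.475). With the mouse as a block, p-values measure how class levels varied between the 2 libraries beyond their common difference, pooled over classes. They do not measure the spread between animals. The classes were built from genes of the same cells other than the 9, and the list gene Prkcd was among the markers. On simulated counts, 85% of genes changed by 1.5 on the log2 scale were called between astrocyte-like and mature oligodendrocyte-like cells, 54% between arterial and other endothelial-like cells and 69% between GABAergic and glutamatergic neuron-like cells, over 16669 to 16718 genes. The changed genes were drawn above a minimum level in the mean of the 2 compared classes. Gja5 and Gjd2 lay below it in each of these comparisons, and others of the 9 genes did in some. Among the latter were Gjb1, Gjb6 and Panx1 between the endothelial-like classes, and Gja1 and Gjb6 between the neuron-like classes. The shares therefore do not apply to genes below that level in a comparison.

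Alternatives were size factors, DESeq2 1.42.0, no filter on low counts, no block, other cell limits, doublets kept, clustering resolution 2, thinned cells and each mouse alone. The members and lists were chosen with earlier results of these data known. Genes outside the 9 were named by rule. From each list and comparison these were up to 4 called genes with the largest change, the same direction in both mice and 50 CPM or more in the class where they were higher. The 3 most correlated genes were named for each member with at least 20 CPM in both mice of a class. Some genes that these rules name are not reported here. Gjb2 and Panx2, the motifs and the clusters described were chosen after their values were seen.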

Additional observations from a re-analysis of the deposited data

Results flagged for a closer look

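Some cells lay in clusters that no comparison used, and signal of the gap junction genes in them was more than 3 times the highest level in microglia-like and border macrophage-like cells of each mouse. In ependymal-like cells, 4 in mouse 1 and 29 in mouse 2, Gja1 was at 174 and 205 CPM. In an unnamed cluster with endothelial and pericyte markers together, Gja1 was at 35.7 and 22.1 CPM, Gja4 at 75.7 and 112 CPM and Gjc1 at 292 and 446 CPM. In an unnamed cluster with endothelial and red blood cell markers, whose cells had a median of 1496 UMIs, Gja1 was at 34.6 and 26.8 CPM and Gjc1 at 41.4 and 112 CPM. In a small cluster with lymphocyte markers, Gjc1 was at 119 and 21.9 CPM, the second from 4 UMIs. In a dividing cluster of oligodendrocyte precursor markers, 3 cells in mouse 1 and 18 in mouse 2, Gjc3 was at 144 and 204 CPM.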

How the results depend on the processing

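Over all 99 pairs of gene and comparison, 20 calls were gained and 22 lost among 939 values under the alternatives. Of these pairs, 45 had more than 3 UMIs on both sides and were either called or given with a value in the text, and of their 398 values 367 kept their direction and their side of the threshold, 21 lost the call, 4 gained one and 6 changed sign. In each mouse alone, 88 of 90 values kept the sign. In thinned cells the number of the 9 genes called fell to 3 for astrocyte-like cells against the mean of the other classes, 1 for neuron-like against non-neuronal classes, and 1 each for committed precursor-like against precursor-like, arterial against other endothelial-like, GABAergic against glutamatergic and habenular against glutamatergic neuron-like cells, where fewer UMIs remained, and 0 for smooth muscle-like against pericyte-like cells. In mature against precursor-like cells it was 4 when the mitochondrial limit was 5%, where Gja1 and Gjb6 were added, and 5 with doublets kept, where Gja1, Gja4 and Gjc3 were. In mature against committed precursor-like cells it was 4 with size factors, 4 with DESeq2 and 4 with doublets kept, each time with Gja4 and Gjc1 added. Over all genes the calls there were 1432 higher and 2542 lower with size factors and 1409 and 2668 with DESeq2, against 1787 and 2287. With no filter on low counts the number of the 9 genes called was 1 in committed precursor-like against precursor-like cells. In arterial against other endothelial-like cells it was 1 with 500 UMIs and 300 genes and 0 at clustering resolution 2. Over all genes the calls there fell as well, to 101 higher and 37 lower with 500 UMIs and 300 genes and to 10 and 7 at resolution 2, against 163 and 64. With doublets kept it was 5 in endothelial-like against mural-like cells, with Gjb1 and Gjc3 added. It was 1 in GABAergic against glutamatergic neuron-like cells, where the GABAergic class also took in a further cluster. In smooth muscle-like against pericyte-like cells it was 0 with no mouse block, 0 with 500 UMIs and 300 genes and 0 at resolution 2. The cause of these changes was not tested. Where no count over all genes is given, a change cannot be taken as particular to these genes. Of the genes called in GABAergic against glutamatergic neuron-like cells, each mouse alone kept 1 to 2.

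The signs that changed were all of differences that had not been called, apart from Gja4 in GABAergic against glutamatergic neuron-like cells, which was between -1.56 in mouse 1 alone and 3.38 in mouse 2 alone. Gja1 in arterial against other endothelial-like cells was -0.31 at resolution 2, Gjb1 in committed precursor-like against precursor-like cells was 0.17 with 500 UMIs and 300 genes, and Gjc3 in astrocyte-like cells against the mean of the others was 0.23 in thinned cells. Gjc1 in neuron-like against non-neuronal classes was -0.11 with 500 UMIs and 300 genes, -0.16 with doublets kept and -0.49 in thinned cells. Without the mouse block, 3 single calls were lost, on Gjb6 in neuron-like classes (-1.44), Gjb1 in astrocyte-like cells against the mean of the others (-1.05) and Gjb1 in smooth muscle-like cells (1.84), and no other call on a pair of gene and comparison changed.

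Size factors shifted the all-gene median log2 fold change by 0.17 for astrocyte-like against mature oligodendrocyte-like cells and by -0.19 for mature oligodendrocyte-like against either precursor stage. The class with the highest level was the same for 8 of 9 genes with a mitochondrial limit of 5% and for 8 at clustering resolution 2, and the class with the highest share of cells was the same for 7 at 1000 UMIs, 8 at 5000 UMIs and 7 with no thinning. A limit of 5% left under 20 smooth muscle-like and leptomeningeal fibroblast-like cells in a mouse, so comparisons with mural-like classes could not be run there. Clustering endothelial cells at resolution 0.5, chosen after the data were seen, changed no count of genes called by more than 1.5 times. Precision is limited by 2 mice and, for Gja5, Gjd2 and Panx1, by few UMIs.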
